A study of Mus musculus with 169 samples.

Results

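Chemokine mRNA was followed in microglia, the resident macrophages of the brain, sorted from mice that have or lack progranulin, the glycoprotein of lysosomes and secretions that Grn encodes. The 10 genes are the ligands Ccl2, Ccl3, Ccl4, Ccl5, Ccl7, Ccl8, Ccl12, Cxcl10, Cxcl13 and Cxcl16. They were chosen by name, and every probe whose RefSeq accession mapped to one of them was taken, which gave 1 probe for each gene, or 10 of 55681 probes and 10 of 20145 gene symbols on the array. Each of the 10 probes passed the detection filter (above background on 3 or more of the 15 arrays) and entered the fit. No filter on low values removed a member.

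Mice of both genotypes, Grn+/+ (WT) and Grn-/- (KO), were on the C57B/6J background and were 4 or 16 months old. Cells were enriched on Percoll gradients and passed through a sorter with antibodies to CD11b, CD45 and Ly6G. The labels do not give sex or say how many animals stand behind an array. There were 7 young arrays (4 WT, 3 KO) and 8 old ones (4 WT, 4 KO). At 16 months, WT arrays 1 and 2 differed from each other by less than repeat spots within an array do, and so did WT arrays 3 and 4, so each pair was counted as 1 sample and the fit held 13 samples. Nothing in the labels says that replicates came from separate animals, and p-values then measure the spread between these samples only. Young and old samples were hybridised on separate slides. Age therefore cannot be told apart from slide, nor genotype from position on a slide.

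Chemokines are small secreted proteins that bind receptors coupled to G proteins and steer migrating leukocytes along their gradients. Microglia and the macrophages of the brain's borders make several of them, and many are switched on within hours by NF-kB, AP-1 or interferon signalling. Levels here are log2 of a probe's signal divided by the 75th percentile on that array, a difference is KO minus WT or old minus young on that scale, and adjusted p is from limma over all features, with 0.05 as the threshold. Levels of different genes are not compared, since each comes from another probe.

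Grn checked the labels: its level was 6.13 to 6.32 in WT and -3.36 to -2.06 in KO at 4 months, a difference of -9.03 (SE 0.28, adjusted p = 2.95e-07), and at 16 months it was 4.61 to 5.46 in WT and not well above background on any of the 4 KO arrays. The KO arrays at 16 months were dimmer than the others, with a 75th percentile of 507 to 1037 against 1010 to 1752 and 54.3 to 62.7% of probes well above background against 64.7 to 76.6%. The microglia label held on marker genes at both ages in WT and at 4 months in KO. All 10 markers were measured, and their summed level was 10.5 to 10.9 in WT and 10.5 to 11.1 in KO at 4 months, 10.02 to 10.74 in WT and 7.83 to 9.13 in KO at 16 months. In KO at 16 months 9 of these 10 markers fell against WT, among them Tmem119 from 6.95 to 3.18, Cx3cr1 from 7.74 to 3.41 and Csf1r from 7.84 to 5.08. In such bulk samples fewer cells of a type and less RNA per cell cannot be told apart.

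Of the 10 genes, 8 lie on chromosome 11 and 2 on chromosome 5. In the RefSeq gene order Ccl2 and Ccl7 are neighbours, Ccl12 and Ccl8 are neighbours in the same run of CC ligands with Ccl11 beside them, and Ccl3 and Ccl4 are neighbours elsewhere on the chromosome. Ccl5 stands beside Ccl9, and Cxcl16 stands between Med11 and Zmynd15, apart from the CC ligands. Promoter sequence was at hand for 5 of the 10 members (Ccl3, Ccl8, Ccl12, Cxcl10 and Cxcl13), as the 250 bases before the RefSeq start of each gene on GRCm38.p6. The 3 promoters below are shown because Ccl12 and Ccl8 are neighbours with different patterns over the 4 groups, and because the Cxcl10 promoter holds matches to 3 inducible elements. They run 5′ to 3′ on the gene's own strand, with motif matches in capitals. Cxcl10 is at chr5:92348890-92349139 on the minus strand, Ccl12 at chr11:82101595-82101844 on the plus strand and Ccl8 at chr11:82114935-82115184 on the plus strand.
Cxcl10: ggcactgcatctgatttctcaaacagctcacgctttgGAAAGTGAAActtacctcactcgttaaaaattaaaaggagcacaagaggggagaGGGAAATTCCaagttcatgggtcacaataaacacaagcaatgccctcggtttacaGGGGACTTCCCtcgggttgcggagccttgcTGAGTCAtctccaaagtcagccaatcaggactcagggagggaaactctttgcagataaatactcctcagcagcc
Ccl12: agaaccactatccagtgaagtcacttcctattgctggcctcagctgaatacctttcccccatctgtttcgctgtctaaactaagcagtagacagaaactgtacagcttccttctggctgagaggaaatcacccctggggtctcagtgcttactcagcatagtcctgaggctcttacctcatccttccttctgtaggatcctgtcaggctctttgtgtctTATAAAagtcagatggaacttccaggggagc
Ccl8: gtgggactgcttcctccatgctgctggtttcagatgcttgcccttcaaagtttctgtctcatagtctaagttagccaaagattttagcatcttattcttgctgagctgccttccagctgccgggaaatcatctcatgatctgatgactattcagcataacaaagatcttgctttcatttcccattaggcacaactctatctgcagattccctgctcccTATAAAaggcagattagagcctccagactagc

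In the Cxcl10 promoter the capitals mark, from 5′ to 3′, the core of an interferon-stimulated element (GAAANNGAAA) at 213 to 204 bases upstream of the start, matches to the NF-kB consensus at 159 to 150 and at 104 to 94 bases (in the latter, 2 overlapping matches), and an AP-1 core (TGANTCA) at 74 to 68 bases. Searched on both strands, these letters occur in 2.98%, 7.25% and 6.75% of all 32851 promoter windows of this length for the interferon element, NF-kB and AP-1. The Ccl12 and Ccl8 promoters held none of these 3 motifs and each held a TATA box (TATAAA on the gene's strand, in 7.59% of windows), at 31 to 26 and 32 to 27 bases. Aligned with each other, they had 129 identical bases, or 50.6% of the alignment. The Cxcl13 window held only TATAAA, at 46 to 41 bases, and the Ccl3 window held none of the 4 motifs. A match describes the letters and shows no binding.

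The first comparison asked how chemokine mRNA differed between genotypes in old mice. At 16 months 5 of the 10 members fell in the KO samples and 0 rose. Of all features 34.4% passed the test, 15.1% as falls and 19.3% as rises. The 5 were Ccl3, Ccl4, Ccl12, Cxcl10 and Cxcl16. All 10 fitted differences were below 0, with a median of -2.15 against 0.12 over all features. In 4 of the 10 (Ccl3, Ccl4, Ccl12 and Cxcl16) every KO sample lay below both WT samples, while 42.2% of all features had groups that did not overlap. KO at 16 months was the lowest of the 4 groups for 7 members, a count not taken over all features.

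**Figure D1:**
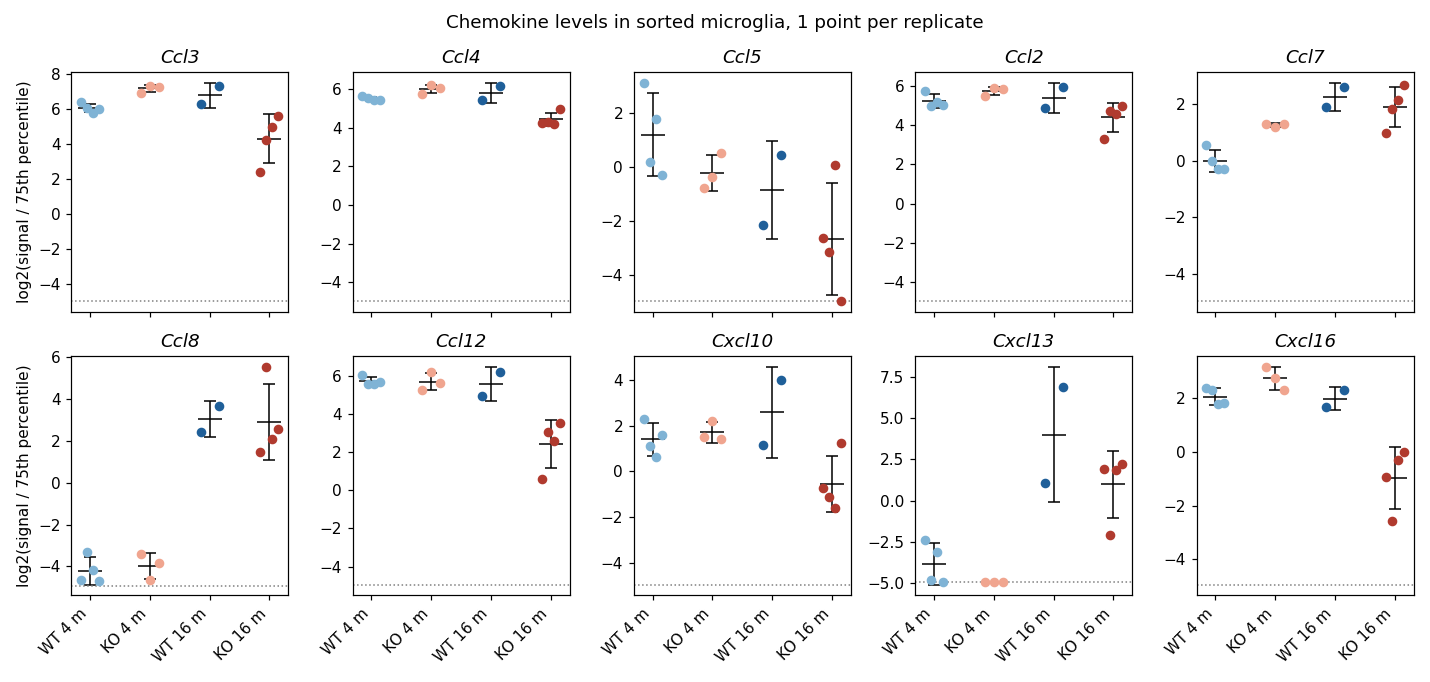
Level of each chemokine (log2 units relative to the 75th percentile on each array, y axes differ between panels) in the 4 groups, 1 point per sample, with the group mean and SD as bars and the floor of -4.94 as a dotted line. Ccl3, Ccl4, Ccl12 and Cxcl16 in KO at 16 months lie below the samples of the other 3 groups, and Ccl8 is near the floor at 4 months and above 1 at 16 months in both genotypes.

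Ccl3, a ligand of Ccr1 that recruits monocytes and T cells, had levels of 6.29 (arrays 1 and 2) and 7.31 (arrays 3 and 4) in WT at 16 months and 2.40, 4.27, 4.98 and 5.62 in KO. The 4 KO samples were all lower than both WT samples, and they spread over 3.22 log2 units. The mean fell by 2.48 (SE 0.70, 5.59-fold, adjusted p = 0.0194). Ccl4, its neighbour and a chemoattractant of macrophages and T cells, had levels of 5.42 and 6.16 in WT and 4.24, 4.30, 4.20 and 4.95 in KO. KO arrays 1 to 3 lay close together, array 4 was higher, and the groups did not overlap. Ccl4 fell by 1.37 (SE 0.26, 2.58-fold, adjusted p = 0.00317). Ccl5, which binds Ccr1 and Ccr3, had levels of -2.13 and 0.44 in WT and -2.62, -3.14, 0.09 and the floor of -4.94 in KO, where 1 of 4 arrays was not well above background. Its groups overlapped, and its difference of -1.81 (SE 1.33, 95% interval -4.75 to 1.13, adjusted p = 0.326) was within the spread.

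The ligands of Ccr2 and its relatives divided. Ccl12, a mouse Ccr2 ligand that attracts monocytes, had levels of 4.96 and 6.22 in WT and 0.61, 3.04, 2.56 and 3.50 in KO. No KO sample reached the lower WT sample, and KO array 1 was the lowest. Ccl12 fell by 3.16 (SE 0.68, 8.95-fold, adjusted p = 0.00538). Ccl2, the main Ccr2 ligand, had levels of 4.86 and 5.93 in WT and 3.31, 4.71, 4.59 and 4.99 in KO, and KO array 4 lay above the lower WT sample. Its difference of -0.997 (SE 0.45, 95% interval -2.002 to 0.01, adjusted p = 0.114) missed the threshold, although it passed with the percentile taken over always-detected probes (-1.31, adjusted p = 0.0469) and with quantile normalization (-1.56, adjusted p = 0.0211). The Ccl2 probe was printed in 10 spots, whose SD within an array was 0.0416 to 0.200. Ccl7, another Ccr2 ligand, had levels of 1.89 and 2.60 in WT and 0.97, 1.82, 2.13 and 2.66 in KO. These ranges overlapped, with a difference of -0.35 (SE 0.42, 95% interval -1.27 to 0.57, adjusted p = 0.563). Ccl8, which in the mouse binds Ccr8, had levels of 2.45 and 3.65 in WT and 1.45, 5.55, 2.07 and 2.55 in KO. KO array 2 was the highest of the 6 samples and the others overlapped. The Ccl8 difference was -0.14 (SE 0.96, 95% interval -2.27 to 1.98, adjusted p = 0.959), and its spot on WT array 4 was marked as an outlier and left out.

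Among the CXC ligands, Cxcl16, the Cxcr6 ligand that is made as a membrane protein and shed by Adam10 and Adam17, had levels of 1.68 and 2.31 in WT and -0.93, -2.58, -0.31 and 0.00 in KO. All KO samples were lower than both WT samples. Cxcl16 fell by 2.95 (SE 0.60, 7.74-fold, adjusted p = 0.00414). Cxcl10, an interferon-induced ligand of Cxcr3 that attracts activated T cells and whose promoter is shown above, had levels of 1.17 and 4.00 in WT and -0.71, -1.10, -1.58 and 1.23 in KO. KO array 4 lay just above WT arrays 1 and 2, so the groups overlapped, and the mean fell by 3.12 (SE 0.87, 8.72-fold, adjusted p = 0.0188). Cxcl13, the Cxcr5 ligand that attracts B cells to lymphoid follicles, had levels of 1.09 and 6.92 in WT and 1.94, -2.07, 1.84 and 2.23 in KO. The 2 WT samples lay on either side of 3 of the 4 KO samples, and the difference of -3.02 had an SE of 1.57 (95% interval -6.50 to 0.46, adjusted p = 0.163).

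The call of a fall rests on few WT samples. All 10 members were higher in WT arrays 3 and 4 than in WT arrays 1 and 2, by 0.63 (Cxcl16) to 5.83 (Cxcl13), with a median of 1.14 against 0.05 over all features, 1.02 for microglia markers and 1.76 for immediate early genes. Without WT arrays 3 and 4, 1 WT sample was left, and the differences of Ccl3, Ccl12 and Cxcl10 shrank to -1.98, -2.53 and -1.71. Without WT arrays 1 and 2, again with 1 WT sample, the Cxcl13 difference was -5.93. Fitted on all 16-month arrays alone, with the differences of the main fit, 0 of 10 passed by limma, where 1744 of all features rose and 1695 fell. Adjusted p was 0.0656 for Ccl4 to 0.168 for Ccl3 among the 5. In that fit 4 members had an unadjusted p under 0.05, a share not counted over all features. That fit had fewer samples to estimate the spread. Each member's SD was larger at 16 than at 4 months in both genotypes. For Ccl3 it was 0.72 in WT and 1.39 in KO against 0.24 and 0.21. The main fit takes 1 spread per gene from all 4 groups. Its 16-month SEs thus draw partly on the tighter 4-month samples, and its 4-month SEs partly on the wider 16-month ones.

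**Figure D2:**
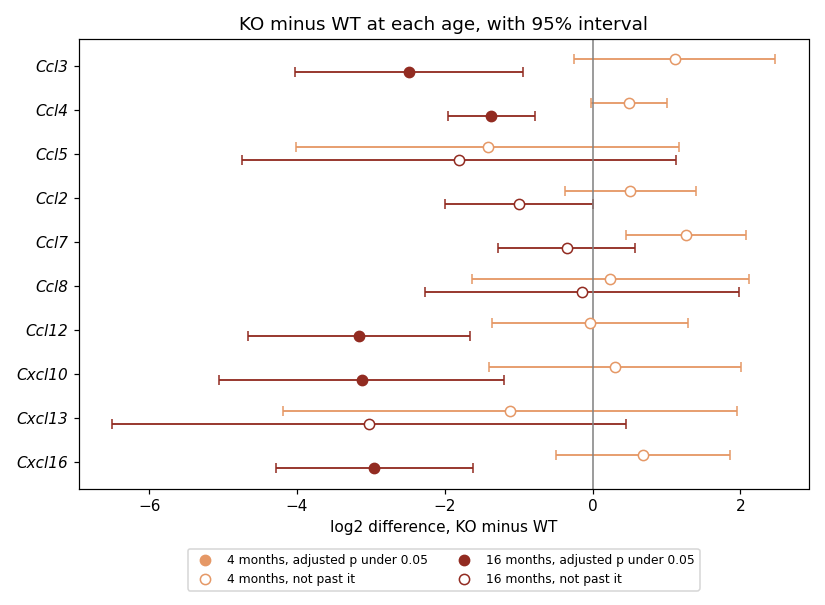
KO minus WT difference (log2, x axis) of each chemokine at 4 months (orange) and 16 months (red), with 95% intervals as bars and filled points for adjusted p under 0.05. The 5 filled points are Ccl3, Ccl4, Ccl12, Cxcl10 and Cxcl16 at 16 months, all to the left of 0, and no 4-month point is filled.

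At 4 months the same comparison in young mice gave no call. By limma 0 of 10 members passed, against 0.025% of all features (0.0157% rose and 0.00939% fell), and 1 (Ccl7) had an unadjusted p under 0.05. Fitted on the 4-month arrays alone 0 of 10 passed too, with 0.125 for Ccl3 as the smallest adjusted p. In that fit 4 (Ccl3, Ccl4, Ccl7 and Cxcl16), all higher in KO, had an unadjusted p under 0.05. For neither fit was the share of all features under that unadjusted level counted. The median difference was 0.40, against 0 over all features to 2 decimals, and 7 of 10 differences were above 0. In 3 members, Ccl3, Ccl4 and Ccl7, every KO sample was higher than every WT sample, as the groups did not overlap in 11.7% of all features.

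Ccl7 was -0.29, -0.28, -0.02 and 0.55 in WT and 1.17, 1.29 and 1.30 in KO at 4 months. The KO samples lay close together and above all WT samples, and the difference was 1.27 (SE 0.37, unadjusted p = 0.0059, adjusted p = 0.488). Ccl3 was 5.80, 6.04, 6.10 and 6.40 in WT and 6.96, 7.29 and 7.33 in KO, a difference of 1.11 (SE 0.62, 95% interval -0.25 to 2.47, adjusted p = 0.927). Ccl4 was 5.40, 5.42, 5.54 and 5.61 in WT and 5.76, 6.03 and 6.18 in KO, a difference of 0.50 (SE 0.23, 95% interval -0.02 to 1.01, adjusted p = 0.85). Both neighbours thus had all 3 KO samples on the high side without passing the test. Some markers of other cells had higher values in young KO as well, and in 2 lists of 7 markers each 0 passed by limma. Of 7 border macrophage markers 2 had an unadjusted p under 0.05, Mrc1 (1.94, adjusted p = 0.376) and Ms4a7 (2.76, adjusted p = 0.563). All 7 choroid plexus markers did, with a median of 3.26 and adjusted p of 0.150 to 0.733. Summed levels of 8 neutrophil markers were 5.11 to 6.91 in WT and 7.68 to 8.03 in KO, with a median difference of 1.59. For 5 monocyte markers they were 1.97 to 3.60 and 4.00 to 5.23 (median 0.79). Those of 7 astrocyte markers were 4.67 to 5.05 and 5.12 to 5.37. T and NK cell sums were lower (1.14 to 1.80 and -0.15 to 0.39). So were B cell sums (3.19 to 3.38 and 2.29 to 3.09). By limma no neutrophil or monocyte marker had an unadjusted p under 0.05. The part of these cells in the values of Ccl3, Ccl4 and Ccl7 was not tested.

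Ccl2 was 4.99 to 5.72 in WT and 5.49 to 5.90 in KO, with a difference of 0.51 (SE 0.40). Ccl12 was 5.58 to 6.06 in WT and 5.26 to 6.18 in KO, and its difference of -0.04 (SE 0.60, 95% interval -1.36 to 1.29) was the smallest of the 10. Cxcl16 was 1.77 to 2.38 in WT and 2.30 to 3.17 in KO (difference 0.68, SE 0.53). These 3 overlapped between genotypes. Cxcl10 was 0.62 to 2.27 in WT and 1.42 to 2.22 in KO (difference 0.31, SE 0.77), and Ccl5 was -0.28 to 3.13 in WT and -0.78 to 0.54 in KO (difference -1.42, SE 1.17). For Ccl5, WT arrays 1 and 3 were the highest, at 3.13 and 1.79. Ccl8 was near background in both genotypes, at -4.72 to -3.29 in WT and -4.63 to -3.41 in KO. Cxcl13 was well above background on 3 of 4 WT arrays and on 0 of 3 KO arrays, which put WT at least 3.72-fold over KO as a bound, with a fitted difference that did not pass (adjusted p = 1).

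The change of the KO effect with age was tested directly, as the 16-month difference minus the 4-month difference. It fell in 4 members, where 13.3% of all features passed, 6.53% as falls and 6.81% as rises. Cxcl16 changed by -3.63 (SE 0.80, adjusted p = 0.0164), from a difference of 0.68 to one of -2.95. Ccl3 changed by -3.59 (SE 0.93, adjusted p = 0.0304), Ccl12 by -3.13 (SE 0.91, adjusted p = 0.0458) and Ccl4 by -1.87 (SE 0.35, adjusted p = 0.00901). The other 6 did not pass, among them Cxcl10 (-3.43, SE 1.16, adjusted p = 0.0772), Ccl7 (-1.62, SE 0.56, adjusted p = 0.0809) and Ccl2 (-1.51, SE 0.61, adjusted p = 0.124). Ccl4 and Cxcl16 passed in all 23 other settings run for this contrast, Ccl3 in 16 and Ccl12 in 10. Ccl3 was lost without any single 4-month sample other than WT array 1 and without WT arrays 3 and 4 at 16 months (adjusted p up to 0.0963), and Ccl12 without any single 4-month sample, without WT arrays 3 and 4 or without KO array 3 at 16 months (up to 0.149). Ccl12 was also lost with no filter on dim probes, a higher floor or every probe tested (0.0517 to 0.0644). With a replicate block Ccl12 was lost (0.105), and Ccl3, Ccl4 and Cxcl16 passed. That block was the replicate number at 4 months. At 16 months it set arrays 1 and 2 of both genotypes against arrays 3 and 4.

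With age the members moved apart. In WT, 3 of 10 rose from 4 to 16 months, Ccl7, Ccl8 and Cxcl13, against 1.8% of all features that rose (3.48% passed in either direction, 1.68% as falls), and the same 3 had groups that did not overlap (30.4% of all features). Ccl8 was -4.65, -3.29, -4.16 and -4.72 at 4 months and 2.45 and 3.65 at 16 months. All 4 young samples lay near background and both old samples far above them, a rise of 7.26 (SE 0.96, adjusted p = 0.00603). Cxcl13 was -2.42, -4.85, -3.10 and at the floor in young WT, and 1.09 and 6.92 in old WT. The old samples differed by 5.83 from each other, and the rise was 7.83 (SE 1.57, adjusted p = 0.0247). Ccl7 rose by 2.25 (SE 0.42, adjusted p = 0.0182) from -0.01 ± 0.39 (SD, n = 4) to 2.24 ± 0.50 (SD, n = 2). Cxcl13 missed the threshold without WT array 2, 3 or 4 at 4 months or without WT arrays 3 and 4 at 16 months (adjusted p = 0.0514 to 0.0708), and Ccl7 without WT arrays 1 and 2 (adjusted p = 0.0628). The replicate block cannot test a change with age, since each of its blocks lies within 1 age. The WT age differences of Ccl3 (0.71), Ccl4 (0.30), Ccl2 (0.16), Ccl12 (-0.14), Cxcl16 (-0.0758), Cxcl10 (1.18) and Ccl5 (-2.06) did not pass, and those of Ccl12 and Cxcl16 turned positive with either other scaling (0.0508 to 0.21).

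In KO, 2 members rose with age and 6 fell, where 40.8% of all features passed, 19.3% as rises and 21.5% as falls, and 8 of 10 had groups that did not overlap, against 43% of all features. This contrast shares its 16-month KO samples with the genotype comparison. Ccl8 rose by 6.87 (SE 0.85, adjusted p = 0.000122), from -3.41, -4.63 and -3.85 to 1.45, 5.55, 2.07 and 2.55. Cxcl13 was not well above background on any young KO array and was at least 134-fold higher at 16 months (adjusted p = 0.00592). The 6 that fell were Cxcl16 (-3.71, SE 0.53), Ccl12 (-3.27, SE 0.60), Ccl3 (-2.88, SE 0.62), Cxcl10 (-2.25, SE 0.77), Ccl4 (-1.57, SE 0.23) and Ccl2 (-1.34, SE 0.40), with adjusted p from 0.000308 to 0.0378. Ccl2 missed the threshold without KO array 2 or 3 at 4 months (0.0649 and 0.0642). Cxcl10 did so without WT array 2 or 4 at 4 months, any single KO array at 4 months, or KO array 1, 2 or 3 at 16 months (0.0518 to 0.117). Ccl7 (0.64, SE 0.37, adjusted p = 0.199) and Ccl5 (-2.45, SE 1.17, adjusted p = 0.123) did not pass, but Ccl7 did without KO array 1 (0.95, adjusted p = 0.0321) and Ccl5 without KO array 3 (-3.36, adjusted p = 0.0270) at 16 months. For KO, too, the replicate block cannot test a change with age.

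**Figure D3:**
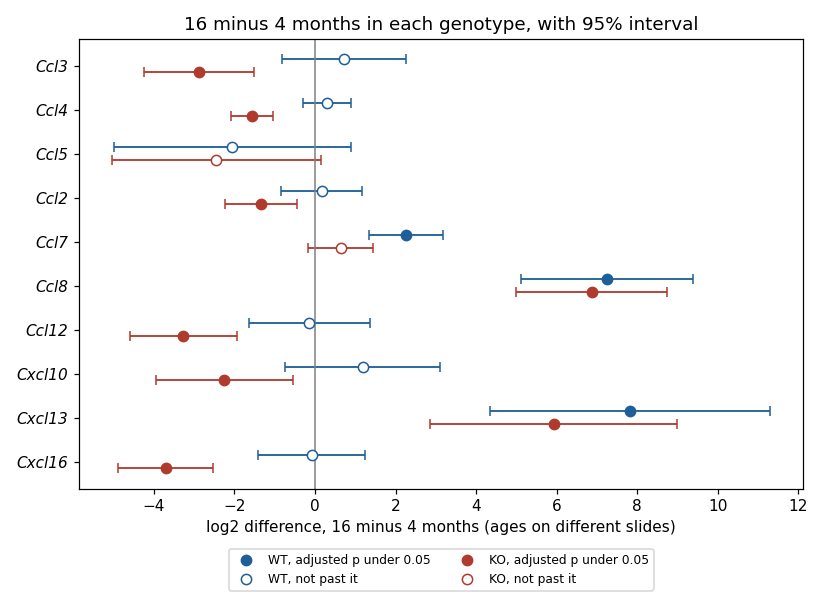
Difference between 16 and 4 months (log2, x axis) of each chemokine in WT (blue) and KO (red), with 95% intervals as bars and filled points for adjusted p under 0.05. Ccl8 and Cxcl13 lie far to the right in both genotypes (5.93 to 7.83), and 6 members lie to the left with filled points in KO; the ages lay on different slides.

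Markers of other cells moved with the members that rose with age. Of 7 border macrophage markers, 4 (Ms4a7, F13a1, Mrc1 and Cbr2) rose from 4 to 16 months in WT, with a list median of 5.03, and the summed level was 4.53 to 5.14 in WT at 4 months, 4.97 to 5.43 in KO at 4 months, 4.98 to 6.21 in WT at 16 months and 4.63 to 6.06 in KO at 16 months. Ms4a7 went from -2.72 to 3.47 and F13a1 from -3.30 to 3.08 in WT, whereas Stab1 was 4.75 and 3.80 (adjusted p = 0.272) and Cd163 was at the floor in WT at 4 months and -4.17 at 16 months. Of 7 choroid plexus markers, 6 rose with age in WT (median 5.07), and the summed level was 3.37 to 6.93, 7.44 to 8.11, 8.33 to 8.93 and 9.64 to 10.5 in WT and KO at 4 months and WT and KO at 16 months. The chemokine Pf4, which border macrophages also make, rose from 0.19 to 4.86 in WT with age (adjusted p = 0.0248). The part of these cells in the rise of Ccl7, Ccl8 and Cxcl13 was not tested.

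At 16 months 15.1% of all features fell and 19.3% rose in KO against WT. There 1 of the 7 border macrophage markers fell (Stab1, -1.28) and 0 rose, with a list median of -0.77. Of 7 choroid plexus markers 4 rose (median 2.42). With quantile normalization Cldn2 still passed by limma (3.34, adjusted p = 0.00101). Kcnj13 (2.52, adjusted p = 0.0514), Folr1 (2.02, 0.0725) and Kl (1.79, 0.128) then missed the threshold. Of 12 immediate early genes, which respond to stimulation and to cell handling, 10 fell in KO, with a median of -3.50, for example Jun from 5.75 to 0.64, Fosb from 6.48 to 2.19 and Dusp1 from 6.24 to 3.51. Their summed level was 8.72 to 9.01 in WT and 8.66 to 9.09 in KO at 4 months, 8.48 to 10.1 in WT and 5.33 to 7.41 in KO at 16 months. The median of the 10 chemokines (-2.15) lay between 0.12, that of all features, and those of the microglia markers (-3.20) and immediate early genes. Without WT arrays 3 and 4, 7 of the 12 immediate early genes, 4 of the 10 microglia markers and 1 of the 7 choroid plexus markers passed in these directions, and with the 16-month arrays alone 4, 2 and 2 did. What part these changes had in the fall of the chemokines was not tested.

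**Figure D4:**
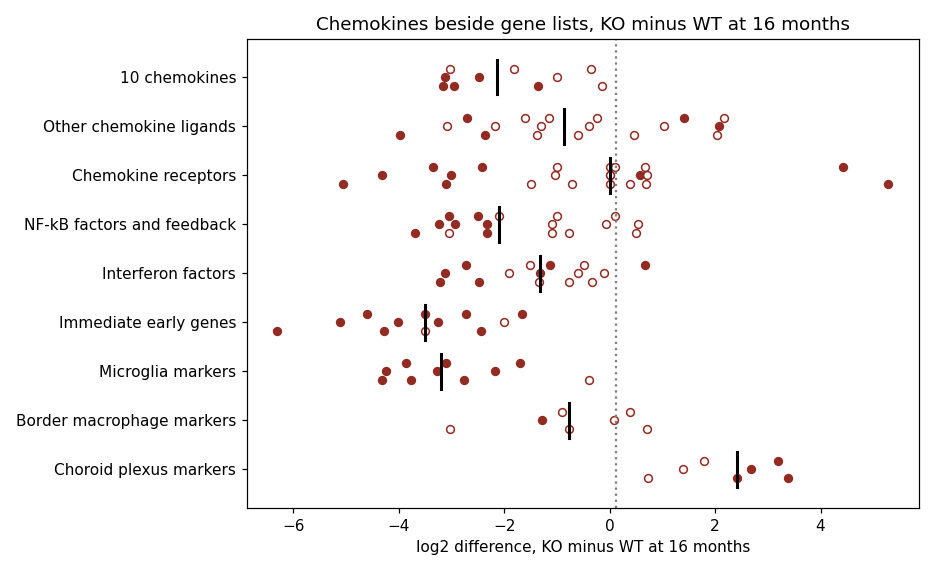
KO minus WT difference at 16 months (log2, x axis) of each gene in 9 lists, filled where adjusted p was under 0.05, with the list median as a black bar and the median of all features as a dotted line. The chemokines (median -2.15) sit to the left of 0 with NF-kB genes (-2.10), immediate early genes (-3.50) and microglia markers (-3.20), and the choroid plexus markers (2.42) sit to the right.

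Some genes of NF-kB and interferon signalling fell in the old KO samples, where 15.1% of all features fell and 19.3% rose. In the same contrast 9 of 10 microglia markers fell (median -3.20). What part the genes below had in the chemokine values was not tested. Of 17 NF-kB factors and feedback genes 7 fell and 0 rose (median -2.10). They were Nfkbia, the inhibitor that NF-kB itself induces, from 7.04 to 4.71, Tnfaip3, a feedback inhibitor, from 5.09 to 2.16, the cytokine Il1b from 2.98 to -0.27, the inhibitor Nfkbie (-3.70), and the subunits Rel (-3.05), Nfkb2 (-2.50) and Nfkb1 (-2.33). Tnf was -0.21 in WT and -2.31 in KO (adjusted p = 0.124). Of 15 interferon receptors and factors 6 fell and 1 rose (median -1.33). Those that fell were Ifngr1, the interferon gamma receptor chain, from 6.37 to 3.25, Irf1 from 5.29 to 2.07 and Irf8, a factor of macrophage identity, from 4.99 to 2.27, with Irf5 (-2.49), Ifngr2 (-1.33) and Jak1 (-1.13), while Ifnar2 (0.67) rose, a difference that shrank to 0.36 with the percentile over always-detected probes and to 0.0475 with quantile normalization (adjusted p = 0.914). At 4 months 0 genes of these 2 lists passed by limma, and 0 had an unadjusted p under 0.05. Without WT arrays 3 and 4, 3 of the NF-kB list and 3 of the interferon list fell at 16 months, and with the 16-month arrays alone 1 and 2 did.

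Receptors were measured in the same samples. Of 22 measured receptors 6 fell and 3 rose in KO at 16 months, where 15.1% of all features fell and 19.3% rose. Cx3cr1, the fractalkine receptor that marks microglia, fell by 4.32. Ccr6 (-5.07), Ccrl2 (-3.36) and Cxcr4 (-2.43) fell too, and Ccr3 was at least 11.9-fold lower in KO, where it was not well above background on any array. The scavenging receptor Ackr3, which binds Cxcl12, rose by 5.28, Ackr4, another scavenger, was at least 48.7-fold higher in KO, and Cxcr1 rose by 0.57. The Cxcr1 rise passed by limma in 8 of 23 other settings, against 24 of 24 for Ackr3 and 22 of 23 for Ackr4. Several receptors of the members were dim or did not pass: Ccr1 was -3.66 in WT and -4.38 in KO, Ccr2 -3.38 and -4.42, Ccr8 -2.75 and -2.08, Cxcr3 -1.76 and -3.24, and Cxcr5 was not well above background on any 16-month array. For Cxcl16, the sheddases Adam10 (5.88 in WT, 5.25 in KO) and Adam17 (1.35 in WT, 0.28 in KO) did not pass (adjusted p = 0.257 and 0.249), and Cxcr6 was at the floor in both groups. Without WT arrays 3 and 4, 2 receptors fell and 2 rose, and with the 16-month arrays alone 1 fell and 1 rose.

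Of 26 other chemokine ligands 18 were measured, and 3 fell and 2 rose in KO at 16 months (median -0.87). Cxcl12, the Cxcr4 ligand, fell from 2.13 to -1.86, Ccl6, a CC ligand beside Ccl3 in the gene order, from 5.05 to 2.69 and the neutrophil attractant Cxcl1 from -0.98 to -3.69. Ccl19 (1.41), a Ccr7 ligand, and Ccl25 (2.08), a Ccr9 ligand, rose. Without WT arrays 3 and 4, 1 of the 18 fell and 0 rose by limma. Of all features 15.1% fell and 19.3% rose in this contrast, so the counts of the other ligands lay near those shares. By count 5 of 10 members and 3 of 18 other ligands fell, a difference that was not tested.

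The members varied together across samples to different degrees. As a description over the 13 samples, which share groups and slides, Pearson's r of levels was 0.95 for Ccl2 and Ccl3, 0.92 for Ccl3 and Ccl12 and 0.91 for Ccl3 and Ccl4. Ccl8 ran against most of them (-0.59 with Ccl12, its neighbour, and -0.73 with Cxcl16) and with Ccl7 (0.77) and Cxcl13 (0.77). After each group's mean was taken away, r was 0.90 for Ccl2 and Ccl7, neighbours whose levels over all samples gave 0.04, and 0.95 for Ccl2 and Ccl12. Within groups the sign for Ccl8 turned, to 0.41 with Ccl12, 0.36 with Ccl2, 0.21 with Ccl3 and -0.39 with Cxcl13, while it stayed at -0.57 with Cxcl16.

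Over the same 13 samples, the genes most like each member were Cd83 and Ccl3 for Ccl2 (r = 0.94 and 0.95), Rasgef1b and Ccl2 for Ccl3 (0.95 each), and Tnfaip3 and Malat1 for Ccl4 (0.96 each). Sirpa and Csf1r, a microglia marker, were nearest to Ccl12 (0.99 each), and Mlph and Man1c1 to Cxcl16 (0.99 and 0.98). For Cxcl10 they were G530011O06Rik and Dusp1 (0.93 and 0.92), an immediate early gene, and for Ccl5 Pnn and Sp2 (0.92 each). Ccl7 was nearest to Lilrb4a and to Ms4a7, a border macrophage marker (0.95 and 0.89), and Ccl8 to Olfr874 and Tcf7 (0.97 and 0.94).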

How the data were processed

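Single-colour Agilent arrays measured total RNA of sorted microglia. Per the file headers, the deposited signal is each spot's intensity after background subtraction by Feature Extraction (version 10.7.3.1, design 028005). R 2.15.3 is named in the submitters' processing notes. Here each array's intensity was divided by its 75th percentile, repeat spots were averaged without outlier spots, values under a floor of 0.0325 times the percentile (log2 of -4.94) were raised to it, and log2 was taken. The filter, detection above background on 3 or more arrays, kept 45637 of 55681 probes. The brightest probe per gene left 31945 features, 17816 with a symbol from RefSeq accessions.

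One limma 3.58.1 model (R 4.3.3, version 1.17.8 of data.table) with 1 mean per group was fitted to 13 samples. Tests were two-sided, with Benjamini-Hochberg adjustment over all features. A run on simulated data used 1 spread per feature in all groups, so it cannot show how the wider spread at 16 months acts on the calls. A bound ("at least N-fold") sets the bright group's mean against, per array, the higher of the dim probe's signal and the lowest signal among probes well above background. WT arrays 1 and 2 at 16 months differed by a scaled median absolute deviation of 0.123 and arrays 3 and 4 by 0.0946, against 0.382 to 1.28 in other pairs within a group and 0.134 to 0.230 between repeat spots. The number of arrays limits the precision.

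Members and lists were chosen with earlier results of these data known. All 10 members are named, in each list at most the 6 genes with the smallest p among those past the threshold at 16 months, and for members above background on at least 12 arrays the 2 genes with the highest Pearson r. Genes named with values that miss the threshold or the first 6 were picked after their values were seen. The receptor, NF-kB, interferon and marker lists appear with their counts in the text. Promoters are RefSeq's, on GRCm38.p6. The bead array table of whole brain tissue was not used here, since its probes are not paired with genes here. The alternatives were other scalings, background corrections, filters, floors and probe rules, separate arrays, a replicate block, single-age fits and leaving out each sample. Some genes within the list counts are not reported here.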

Additional observations from a re-analysis of the deposited data

Results flagged for a closer look

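Among 20 groups of 4 samples examined, 2 held a sample that stood far from the other 3, where chance alone gives about 1 in 20. In KO at 16 months, Ccl4 on array 4 was 4.95, above 4.20 to 4.30 on the other arrays, and Cxcl13 on array 2 was -2.07, below 1.84 to 2.23. The KO effects at 16 and 4 months differed by limma's interaction test in 4 members, by -3.59 for Ccl3, -1.87 for Ccl4, -3.13 for Ccl12 and -3.63 for Cxcl16 (adjusted p = 0.0304, 0.00901, 0.0458 and 0.0164).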

How the results depend on the processing

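Each member was refitted under the alternatives. For KO minus WT at 16 months the 5 falls became 0 with the 16-month arrays alone and 2 to 6 when 1 sample was left out. The age change of the KO effect fell in 4 members, and in 2 to 6 with 1 sample left out. The 3 rises with age in WT became 1 with probes above background on all 15 arrays, which tested 7 members. In KO the 2 rises became 0 with that filter. The replicate block cannot test changes with age, since each block lies within 1 age. The numbers were not taken to pair the samples: same-numbered deviations correlated at -0.042 to -0.036 at 4 months and at 0.115 to 0.124 at 16 months, where the 4 WT arrays are 2 samples and WT array 3 lay nearest to KO array 4 (0.133). With the block 5 members fell at 16 months, where 4100 of 31943 features fell and 4372 rose. The age change of the KO effect then fell in 3 members, where 1113 of 31940 features fell and 850 rose. Over all features at 16 months 6151 rose and 4830 fell, but 4639 rose and 6120 fell with the percentile over probes detected on all arrays, with the median moving from 0.12 to 0.00. Values that changed sign all missed the threshold. For KO minus WT they were Ccl8 at 16 months (0.0564 with separate arrays, -1.03 to 0.46 with 1 sample left out), Ccl7 at 16 months (-0.71 to 0.00499), and at 4 months Ccl12 (-0.28 to 0.18) and Ccl8 (-0.0356 to 0.57), these with 1 sample left out. For the interaction they were Ccl5 (0.19 with normexp on median signals, an alternative chosen after seeing the data, 0.11 with the block, -1.67 to 0.89 with 1 sample left out), Ccl8 (-1.27 to 0.22) and Cxcl13 (-4.82 to 1.01). For age in WT they were Ccl12 and Cxcl16 (0.14 and 0.21 with the percentile over detected probes, 0.0508 and 0.11 with quantile normalization, -0.77 to 0.49 and -0.39 to 0.24 with 1 sample left out), Ccl3 and Ccl2 with the block (-0.0631 and -0.0691), and Ccl4 (-0.0729 to 0.67), Ccl2 (-0.37 to 0.70) and Cxcl10 (-0.23 to 2.60) with 1 sample left out. The cause was not tested. Planned comparisons in cortex, hippocampus and cerebellum and normexp on mean signals were not run.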

Other observations

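Markers of other cells that the sort could hold were tested in KO against WT at 16 months by limma. Of all features 19.3% rose and 15.1% fell in this contrast, and the lists are short, so a call of 1 marker says little about a cell type. Of 5 monocyte markers 1 rose (Vcan) and 0 fell, with a list median of -1.04, of 8 neutrophil markers 1 rose and 0 fell (median -2.95), and of 6 T and NK cell markers 1 rose (Nkg7, 0.93) and 1 fell (Klrd1, -5.42), with a median of 0.47. Of 3 B cell markers 1 fell (median -0.37). Of 7 astrocyte markers 2 rose and 1 fell (median 0.87), of 6 neuron markers 1 rose and 1 fell (median 0.54), of 6 endothelial markers 1 rose and 2 fell (median -1.40), and of 6 oligodendrocyte markers 1 rose and 4 fell (median -1.69). These counts moved with single WT samples. Without WT arrays 3 and 4, 0 astrocyte markers rose and 1 fell, 0 neuron markers rose and 1 fell, 2 endothelial markers rose and 0 fell, 1 oligodendrocyte marker rose and 1 fell, and 1 neutrophil marker rose and 1 fell. Without WT arrays 1 and 2, 0 monocyte markers rose and 1 fell, 0 T and NK cell markers rose and 1 fell, 1 endothelial marker rose and 1 fell, and 0 oligodendrocyte markers rose and 3 fell. With the 16-month arrays alone, 3 of all these markers passed, 1 neutrophil marker as a rise and 1 neuron and 1 oligodendrocyte marker as falls.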
